A study of Mus musculus with 18 samples.

Results

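Tyrosine and tryptophan catabolism is represented here by 9 genes: Tat, Hpd, Hgd and Fah of the tyrosine branch and Tdo2, Afmid, Kmo, Kynu and Haao of the tryptophan branch. The members are all probe sets whose platform symbol is one of these names, and the deposited log2 signal on each array is the measurement. They have 16 probe sets among the 45101 of the array. Of these, 14 exceeded log2 4 on at least 3 arrays and were kept, and all 9 genes were among the 9053 genes tested. Where a gene has several kept probe sets, the one with the highest mean signal stands for it, and the others are given apart.

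The study measured 18 samples of liver or liver tumour (hepatocellular carcinoma, HCC) from male mice, 1 oligonucleotide array per sample, to ask how the intestinal microbiota and Tlr4 act on liver cancer. WT tumours (7 samples) came from C3H/HeOuJ mice at 54 weeks of age. These mice had received the liver carcinogen diethylnitrosamine (DEN), 100 mg/kg in week 12, and then 6 injections of the hepatotoxin CCl4, 0.5 ml/kg, between weeks 13 and 23. Tlr4-mutant tumours (5 samples) came from C3H/HeJ mice of the same age and regimen, in which Tlr4, the receptor for bacterial lipopolysaccharide, carries the change P712H. The mutation goes with the substrain, so mutation and substrain cannot be told apart. Antibiotic tumours (3 samples) came from C3H/HeOuJ mice with the same regimen and age, which also drank ampicillin, neomycin and metronidazole at 1 g/l each and vancomycin at 500 mg/l from week 10. Normal liver (3 samples) came from untreated C3H/HeOuJ mice aged 15 weeks, so it differs from the tumours in age and in exposure to DEN and CCl4 as well as in tissue. Whether the samples within a group are from different animals is not stated in the sources used here. The p-values therefore rest on the spread among samples, part of which may be technical.

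Both pathways run mainly in hepatocytes. Tyrosine is transaminated by Tat, oxidised by Hpd to homogentisate and by Hgd to maleylacetoacetate, isomerised by Gstz1, and split by Fah into fumarate and acetoacetate. In humans, loss of HGD causes alkaptonuria, and loss of FAH causes type I tyrosinaemia, in which toxic intermediates build up and liver cancer is frequent. Tryptophan is opened by Tdo2 to N-formylkynurenine, which Afmid hydrolyses to kynurenine. Kmo hydroxylates kynurenine, Kynu cleaves the product to 3-hydroxyanthranilate, and Haao opens that ring toward quinolinate, the precursor of de novo NAD synthesis. Tat and Tdo2 are textbook glucocorticoid-induced genes of liver.

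The 3 normal livers differed from the 15 tumours in controls of RNA quality and labelling. The 3' minus 5' signal of Gapdh was 0.204 to 1.02 log2 in tumours and 1.37 to 1.61 in normal liver, that of Actb was 1.85 to 2.79 in tumours and 3.59 to 4.20 in normal liver, and the dap spike-in read 1.77 to 2.22 in tumours and 10.2 to 10.5 in normal liver. For every comparison of tumours with normal liver, tissue cannot be told apart from age, exposure, RNA quality or labelling. WT tumours 17 and 19 stood apart from the other 13 tumours on the second principal component, at 66.2 and 51.6 against -23.0 to -3.61, and results are also given without them. The 6 hepatocyte markers on the array, Alb among them, had a summed log2 signal of 16.9 to 17.1 in WT tumours, 17.1 to 17.2 in Tlr4-mutant tumours, 17.0 to 17.1 in antibiotic tumours and 16.9 to 17.0 in normal liver.

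In the GRCm38.p6 annotation of RefSeq the tyrosine genes lie on 4 chromosomes (Tat chr8:109986078-109999804, Hpd chr5:123171807-123182723, Hgd chr16:37579742-37632026 and Fah chr7:84585159-84605942). The tryptophan genes lie on another 5 (Tdo2 chr3:81958412-81975728, Afmid chr11:117825503-117839908, Kmo chr1:175632193-175660853, Kynu chr2:43555258-43683048 and Haao chr17:83831348-83848981), so no 2 members are neighbours. RefSeq promoter windows, from 250 bases before to 50 bases after an annotated start, were matched for 8 of the 9 members, Kynu being the exception. The windows of Hgd, Tdo2, Afmid and Haao are shown because these genes differ most in how they behave below. Hgd is the member that was not low in 2 WT tumours where most others were. Tdo2 is the one whose probe sets, all lower in antibiotic tumours, differ there in size and call. Afmid had the largest difference, and Haao the smallest adjusted p. The windows shown lie at chr16:37579903-37580202 (plus strand), chr3:81975679-81975978 (minus strand), chr11:117825669-117825968 (plus strand) and chr17:83846741-83847040 (minus strand). The start used lies inside the outer boundary of the gene model for Hgd, Afmid and Haao. Each is written 5′ to 3′ on the strand of its gene, and capitals mark any match, on either strand, to 1 of 6 motifs that are spelt out after the sequences.
Hgd: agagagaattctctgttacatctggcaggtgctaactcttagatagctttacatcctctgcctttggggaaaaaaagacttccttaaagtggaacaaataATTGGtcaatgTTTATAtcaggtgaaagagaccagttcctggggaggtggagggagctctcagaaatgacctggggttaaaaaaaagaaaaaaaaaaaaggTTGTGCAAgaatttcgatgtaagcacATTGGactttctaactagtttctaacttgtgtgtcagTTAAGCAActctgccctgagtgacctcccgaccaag
Tdo2: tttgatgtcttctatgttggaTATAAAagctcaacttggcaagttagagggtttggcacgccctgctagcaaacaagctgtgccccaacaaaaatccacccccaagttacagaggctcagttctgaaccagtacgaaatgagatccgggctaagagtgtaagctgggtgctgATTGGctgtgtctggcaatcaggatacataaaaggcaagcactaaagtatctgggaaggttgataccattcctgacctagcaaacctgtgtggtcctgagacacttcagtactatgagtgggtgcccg
Afmid: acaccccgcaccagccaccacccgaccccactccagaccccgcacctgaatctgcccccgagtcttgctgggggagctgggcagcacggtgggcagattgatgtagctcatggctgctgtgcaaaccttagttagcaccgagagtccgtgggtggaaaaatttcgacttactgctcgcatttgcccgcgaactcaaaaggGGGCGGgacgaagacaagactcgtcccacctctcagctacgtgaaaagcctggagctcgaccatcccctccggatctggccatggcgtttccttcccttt
Haao: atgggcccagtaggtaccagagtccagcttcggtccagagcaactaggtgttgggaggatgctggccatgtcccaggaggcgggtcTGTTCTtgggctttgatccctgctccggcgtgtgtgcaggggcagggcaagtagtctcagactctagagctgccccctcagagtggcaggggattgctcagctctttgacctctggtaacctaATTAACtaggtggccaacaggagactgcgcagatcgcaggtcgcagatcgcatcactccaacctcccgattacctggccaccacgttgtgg
The Hgd window holds 2 matches to TTGCNNAA, a core motif of C/EBP factors, which is present in 10.8% of the 32851 RefSeq promoter windows of this length. None of the other 7 member windows holds it. The letters of the TATA box (TATAAA) were found in Tdo2 and, on the opposite strand, in Hgd. Neither match lies close to the start used, and 13.6% of all windows hold these letters. Tdo2, Tat and Hgd hold the CCAAT box, as 37.4% of all windows do. The GC box (GGGCGG) was found in Hpd, Fah and Afmid and in 35.7% of all windows. Haao holds an HNF1 half-site (GTTAAT, in 7.1% of windows). It also holds, as Kmo does, a half-site of the glucocorticoid receptor (AGAACA, in 19% of windows). No 2 marked motifs overlap in the windows shown. These matches describe letters in the windows and are not sites of measured binding.

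WT tumours had lower signals of both branches than normal liver. Of the 9 members, 7 fell at an adjusted p under 0.05: Hpd, Hgd and Fah of the tyrosine branch and Afmid, Kmo, Kynu and Haao of the tryptophan branch. Over the 9053 genes 20.2% fell in this comparison by the same rule. The largest fall was that of Afmid, 7.30-fold, and the smallest was that of Fah, 1.54-fold. Tat and Tdo2, which carry out the first step of each branch, had negative differences that did not pass the test.

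**Figure D1:**
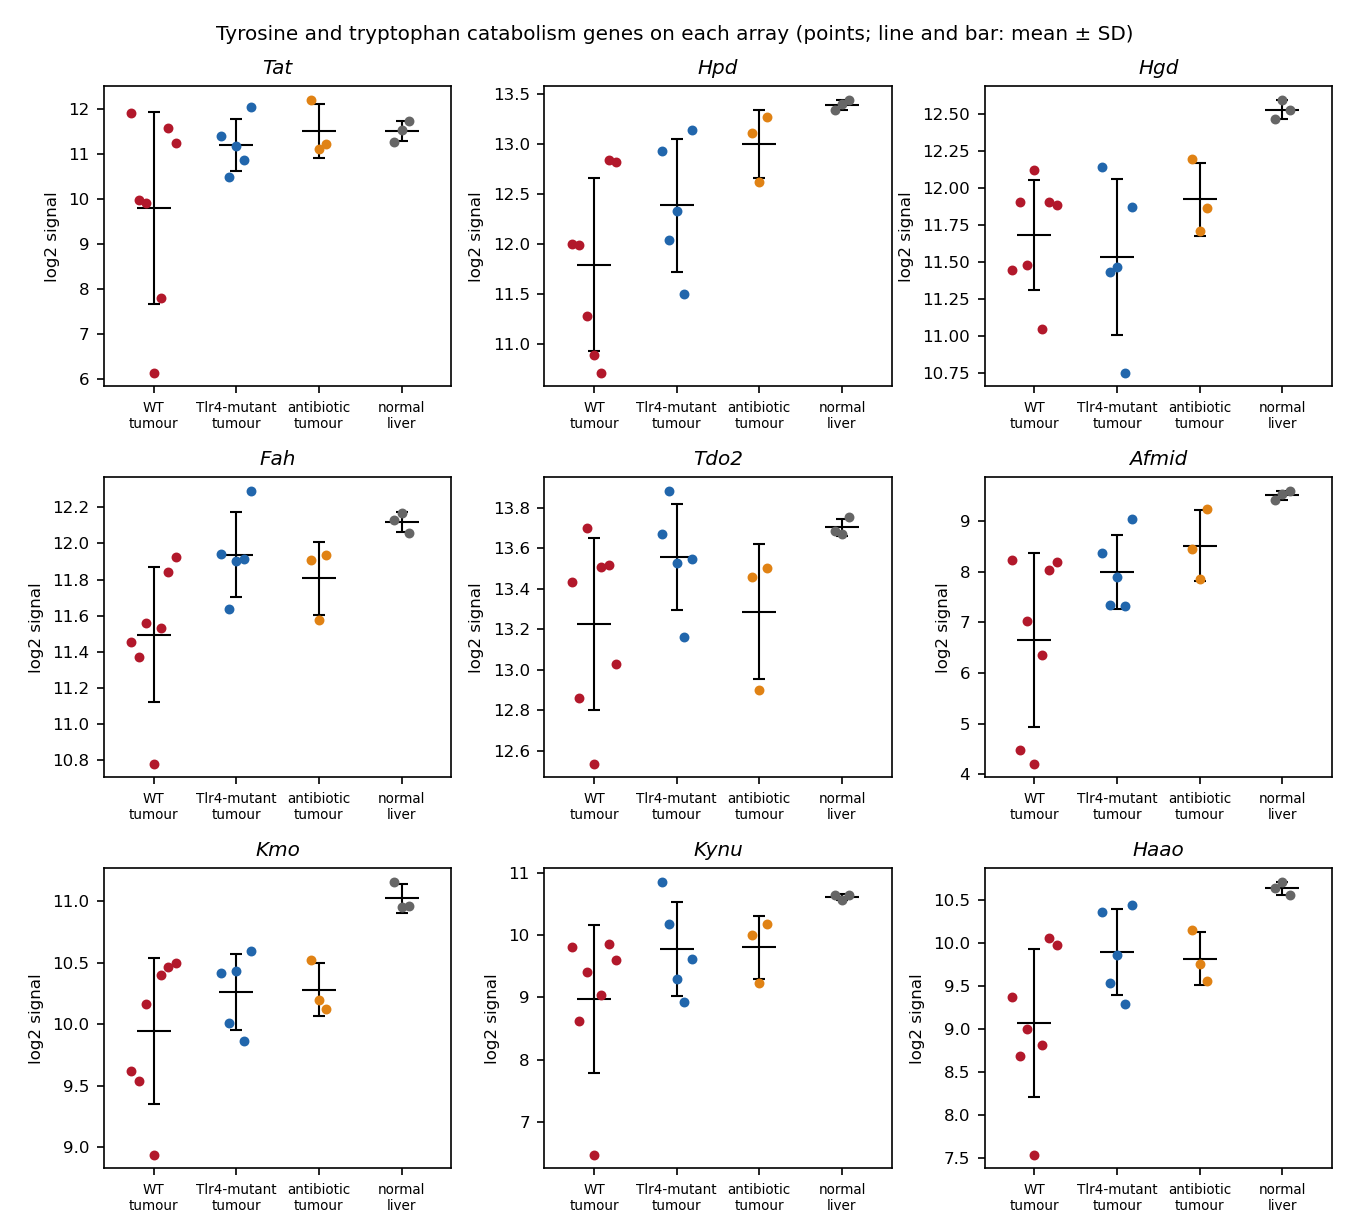
Log2 signal (vertical axis, scaled per gene) of the 9 members on each of the 18 arrays, by group. Points are arrays, and the line and bar are the group mean and SD. Normal liver had the highest mean for all 9 genes and the smallest SD for all 9, while WT tumours had the lowest mean for 8 of them.

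Tat encodes tyrosine aminotransferase, the rate-limiting first step. Its log2 signal had a lowest, median and highest value of 6.15, 9.97 and 11.92 in the 7 WT tumours. Tat read 11.40, 10.49, 11.18, 10.87 and 12.04 in the 5 Tlr4-mutant tumours and 12.20, 11.10 and 11.22 in the 3 antibiotic tumours, against 11.27, 11.54 and 11.72 in the 3 normal livers. WT tumours 19 and 20 were the low ones, at 6.15 and 7.82, while WT tumour 16 lay above every normal liver, so the groups overlap. The mean difference of WT tumours from normal liver was -1.71 (SE 0.93, limma adjusted p = 0.152), with a 95% interval of -3.68 to 0.25. Without WT tumour 19 it was -1.11 (adjusted p = 0.209).

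Hpd encodes 4-hydroxyphenylpyruvate dioxygenase. Its lowest, median and highest signals were 10.72, 11.99 and 12.84 in WT tumours. Hpd read 12.93, 12.04, 12.33, 11.50 and 13.14 in Tlr4-mutant tumours and 13.11, 12.62 and 13.27 in antibiotic tumours, against 13.33, 13.40 and 13.43 in normal liver. All 15 tumours lay below all 3 normal livers, and WT tumours 20 and 19 were lowest. Hpd fell 3.02-fold in WT tumours (log2 difference -1.60, SE 0.44, adjusted p = 0.0101).

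Hgd encodes homogentisate 1,2-dioxygenase. In WT tumours its lowest, median and highest signals were 11.04, 11.88 and 12.12. Hgd read 12.14, 11.43, 11.46, 10.75 and 11.87 in Tlr4-mutant tumours and 12.19, 11.71 and 11.86 in antibiotic tumours, against 12.46, 12.59 and 12.52 in normal liver. Again every tumour lay below every normal liver, but the lowest tumour was Tlr4-mutant tumour 26, and WT tumour 19, the lowest tumour for Tat, was the highest WT tumour for Hgd. The fall in WT tumours was 1.80-fold (-0.85, SE 0.26, adjusted p = 0.0168). Averaging the 2 Hgd probe sets ended this call (-0.70, adjusted p = 0.104).

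Fah encodes fumarylacetoacetate hydrolase, the last enzyme of the branch. WT tumours had a lowest, median and highest Fah signal of 10.78, 11.53 and 11.93. Fah read 11.94, 11.63, 11.91, 11.91 and 12.29 in Tlr4-mutant tumours and 11.91, 11.57 and 11.94 in antibiotic tumours, against 12.13, 12.17 and 12.06 in normal liver. Every WT tumour lay below normal liver, WT tumour 19 by most, while Tlr4-mutant tumour 27 lay above all normal livers. Fah fell 1.54-fold in WT tumours (-0.62, SE 0.20, adjusted p = 0.0200). This call was lost when any 1 normal liver was left out (limma adjusted p = 0.0512 to 0.0715).

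Tdo2 encodes tryptophan 2,3-dioxygenase, the main tryptophan-opening enzyme of liver. Its lowest, median and highest signals in WT tumours were 12.54, 13.43 and 13.70. Tdo2 read 13.67, 13.89, 13.53, 13.16 and 13.55 in Tlr4-mutant tumours and 13.46, 12.90 and 13.50 in antibiotic tumours, against 13.69, 13.67 and 13.75 in normal liver. WT tumour 18 and Tlr4-mutant tumour 24 reached or passed the normal range, and WT tumours 19 and 17 were the lowest of all tumours. The difference of WT tumours from normal liver was -0.48 (SE 0.23, adjusted p = 0.105), with a 95% interval of -0.96 to 0.0030. It was -0.27 without WT tumours 17 and 19.

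Afmid encodes arylformamidase. Its lowest, median and highest signals were 4.21, 7.02 and 8.24 in WT tumours. Afmid read 8.37, 7.35, 7.90, 7.33 and 9.05 in Tlr4-mutant tumours and 8.44, 7.85 and 9.25 in antibiotic tumours, against 9.42, 9.53 and 9.60 in normal liver. Every tumour lay below every normal liver, and WT tumours 19 and 17, at 4.21 and 4.48, were near the detection limit of log2 4. The 7.30-fold fall in WT tumours (-2.87, SE 0.79, adjusted p = 0.00963) was -1.95 (adjusted p = 0.00697) without those 2 tumours.

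Kmo encodes kynurenine 3-monooxygenase, the mitochondrial enzyme that sends kynurenine toward NAD synthesis. WT tumours had a lowest, median and highest Kmo signal of 8.94, 10.16 and 10.50. Kmo read 10.41, 10.01, 10.43, 9.86 and 10.60 in Tlr4-mutant tumours and 10.52, 10.20 and 10.12 in antibiotic tumours, against 11.16, 10.96 and 10.96 in normal liver. No tumour reached normal liver, and WT tumours 19, 17 and 16 were lowest. Kmo fell 2.11-fold in WT tumours (-1.08, SE 0.29, adjusted p = 0.00800).

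Kynu encodes kynureninase. Its lowest, median and highest signals were 6.48, 9.40 and 9.86 in WT tumours. Kynu read 10.85, 10.18, 9.30, 8.93 and 9.62 in Tlr4-mutant tumours and 10.00, 9.23 and 10.17 in antibiotic tumours, against 10.64, 10.56 and 10.64 in normal liver. All WT tumours lay below normal liver, with WT tumour 19 far below the rest, whereas Tlr4-mutant tumour 23 lay above it. The fall in WT tumours was 3.12-fold (-1.64, SE 0.58, adjusted p = 0.0336). The call was lost without WT tumour 17 (adjusted p = 0.0502) and in a fit of the 2 groups alone (adjusted p = 0.0630). It was also lost when any 1 normal liver was left out (limma adjusted p = 0.0846 to 0.0904). Without WT tumours 17 and 19 together the difference was -1.07 (adjusted p = 0.0295).

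Haao encodes 3-hydroxyanthranilate 3,4-dioxygenase. In WT tumours its lowest, median and highest signals were 7.53, 9.0 and 10.06. Haao read 10.35, 9.53, 9.85, 9.29 and 10.43 in Tlr4-mutant tumours and 10.15, 9.75 and 9.55 in antibiotic tumours, against 10.63, 10.71 and 10.56 in normal liver. Every tumour lay below every normal liver, and WT tumours 19 and 17 were lowest. Haao fell 2.97-fold in WT tumours (-1.57, SE 0.41, adjusted p = 0.00762).

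The 7 members that passed were also those with every WT tumour below every normal liver, which held for 20% of the 9053 genes. All 9 differences were negative, where 50.5% of all genes had negative ones. The median of the 9 was -1.57, beside -0.01 over all genes. Leaving out WT tumours 17 and 19 together also gave 7 falls. Leaving out normal liver 2 or normal liver 3 gave 4 in each case: Fah, Hgd and Kynu no longer passed. Without normal liver 1, Fah and Kynu no longer passed. Less RNA of a gene per cell and fewer cells that express it cannot be told apart in bulk tissue. The summed hepatocyte markers given above overlapped between WT tumours and normal liver, and Alb differed by -0.03 between them.

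**Figure D2:**
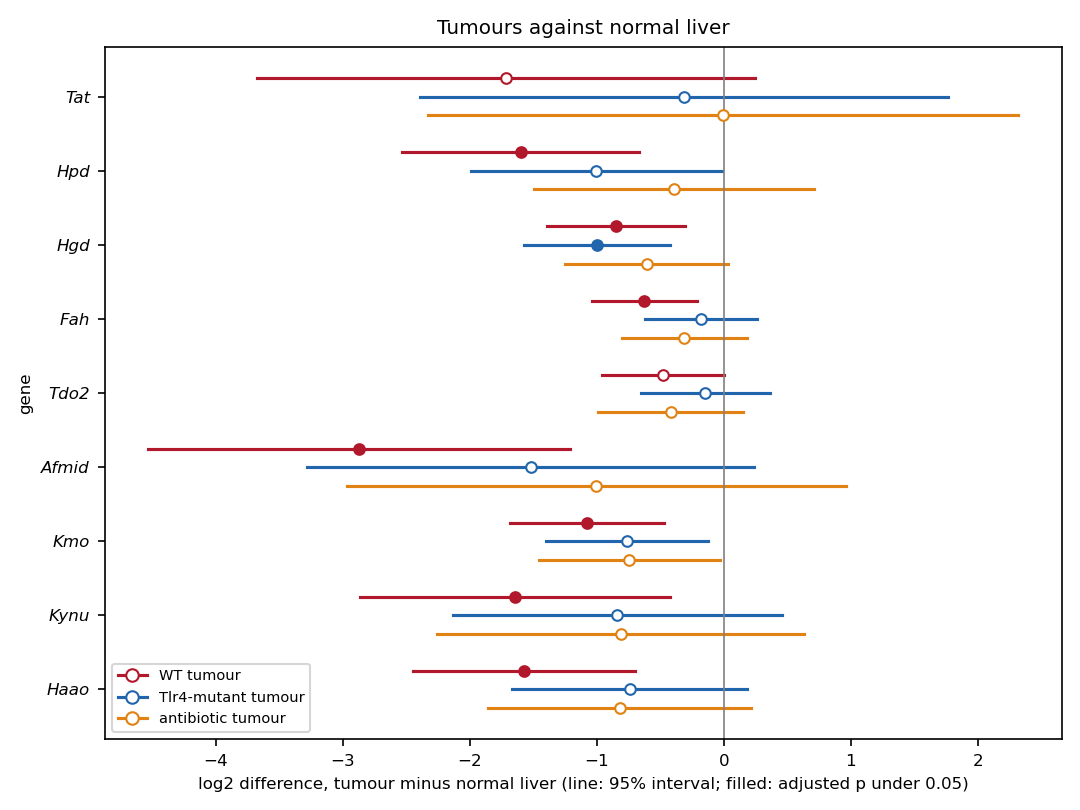
Log2 difference of each tumour group from normal liver (horizontal axis) for the 9 members. Points are differences from the limma fit, lines their 95% intervals, and filled points have an adjusted p under 0.05. The filled points are those of 7 members in WT tumours and of Hgd in Tlr4-mutant tumours.

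In Tlr4-mutant tumours, Hgd was the 1 member that fell against normal liver (1.99-fold, -1.0, SE 0.27, adjusted p = 0.0162), in a comparison where 10.5% of all genes fell. The other 8 differences were negative without passing the test. They were largest for Afmid (-1.52, adjusted p = 0.194) and Hpd (-1.0, adjusted p = 0.130), and smallest for Fah (-0.18, adjusted p = 0.556) and Tdo2 (-0.15, adjusted p = 0.691). Kmo (-0.76, adjusted p = 0.0797), Kynu (-0.84, adjusted p = 0.329), Haao (-0.74, adjusted p = 0.228) and Tat (-0.31, adjusted p = 0.843) lay between them. All 5 tumours lay below all 3 normal livers for 5 members (Hpd, Hgd, Afmid, Kmo and Haao), against 18.9% of all genes. The median over the 9 members was -0.76, beside 0.02 over all genes, of which 48.6% had a negative difference.

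The count of 1 depended on which arrays set the spread. It was 3 (Hgd, Afmid and Kmo) when WT tumours 17 and 19 were left out of the fit, and 2 (Hgd and Kmo) without WT tumour 19 alone. Hgd itself no longer passed when any 1 normal liver was left out, with adjusted p-values of 0.0503 to 0.0617.

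In antibiotic tumours 0 of the 9 members fell against normal liver by the limma test, in a comparison where 6.91% of all genes did. At an unadjusted limma p under 0.05 there was 1, Kmo, with a difference of -0.74 (adjusted p = 0.142). The same threshold was met by 2900 of the 9053 genes. Every antibiotic tumour lay below every normal liver for 8 members, all but Tat, against 22.5% of all genes. Differences were -0.82 for Haao, -0.81 for Kynu, -1.0 for Afmid, -0.61 for Hgd, -0.42 for Tdo2, -0.39 for Hpd and -0.31 for Fah, while Tat differed by -0.0024. The median over the members was -0.61, and it was -0.0022 over all genes. With 3 tumours the intervals are wide: that of Afmid ran from -2.97 to 0.96 and that of Tat from -2.32 to 2.32. Without WT tumours 17 and 19 in the fit, Kmo passed (adjusted p = 0.0414).

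The tumour groups were then set against each other, the comparisons that bear on Tlr4 and on the microbiota. None of the 9 members differed between any pair of tumour groups at an adjusted p under 0.05, and for each member each pair of tumour groups overlapped. Tlr4-mutant tumours against WT tumours gave 0 members where 0.265% of all genes passed in either direction. Antibiotic tumours against WT tumours gave 0 where 0.0884% did, and Tlr4-mutant against antibiotic tumours gave 0 where 0.232% did.

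**Figure D3:**
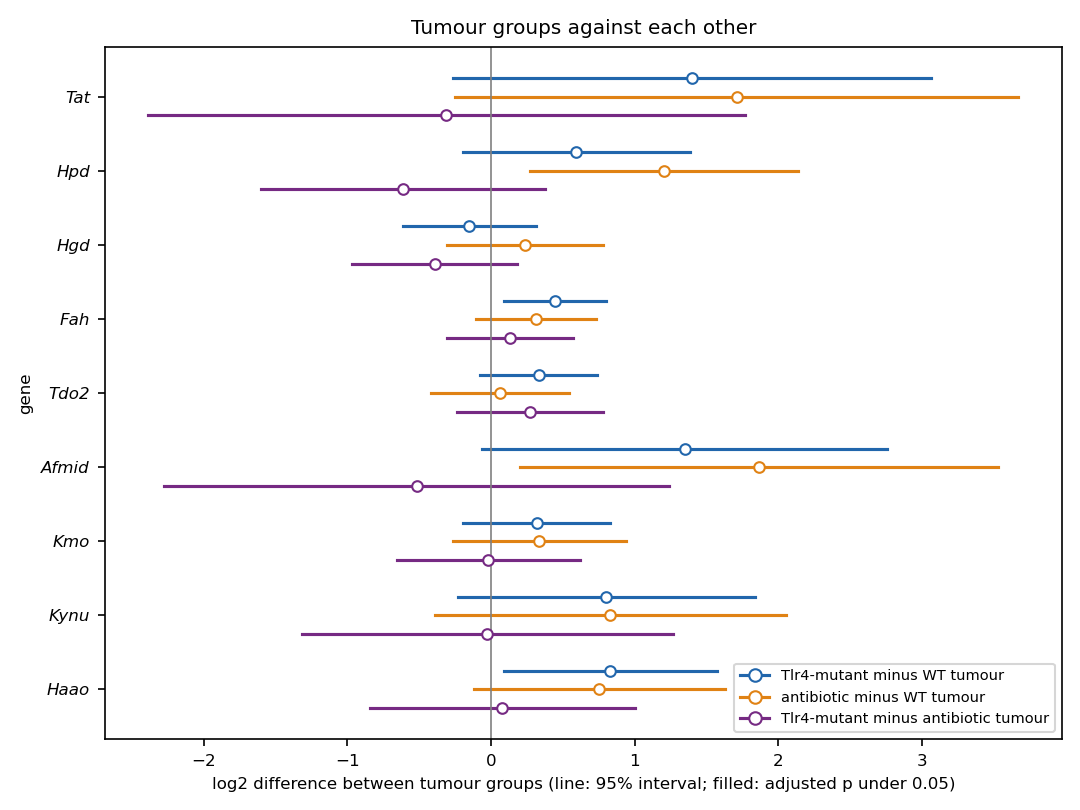
Log2 differences between tumour groups (horizontal axis) for the 9 members, with 95% intervals from the limma fit. No point is filled, since no adjusted p was under 0.05. Most intervals of Tlr4-mutant minus WT and antibiotic minus WT tumours lie largely to the right of 0, and all but 4 of them include it.

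Against WT tumours, Tlr4-mutant tumours had higher means for 8 members, with Hgd the exception at -0.15 (95% interval -0.61 to 0.31), and the median was 0.59 beside 0.03 over all genes. Of all genes 53.4% had a higher mean in the mutant. At an unadjusted p under 0.05 there were 2 members, Fah (0.44, adjusted p = 0.222) and Haao (0.83, adjusted p = 0.257). The same threshold was met by 1512 of the 9053 genes. The differences of Tat (1.40) and Afmid (1.35) were larger with wider intervals, -0.27 to 3.07 and -0.06 to 2.76. Without WT tumours 17 and 19 the difference of Fah was 0.28 (adjusted p = 0.471), that of Haao 0.45 (adjusted p = 0.546), that of Tat 0.71, that of Afmid 0.43 and that of Kynu 0.23 in place of 0.80.

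Antibiotic tumours had higher means than WT tumours for all 9 members, with a median of 0.75 beside 0.02 over all genes. Of all genes 51.9% had a higher mean in antibiotic tumours. The unadjusted p was under 0.05 for Hpd (1.21, adjusted p = 0.229) and Afmid (1.87, adjusted p = 0.277), and for 1401 of the 9053 genes. Without WT tumours 17 and 19 the difference of Afmid was 0.94 (adjusted p = 0.419), that of Tat 1.02 in place of 1.71, that of Haao 0.37 in place of 0.75, and that of Kynu 0.26 in place of 0.83, while that of Hpd was 1.07. Tdo2 differed least, by 0.06, and its sign turned to -0.15 without WT tumours 17 and 19. This comparison and that of the mutant share the 7 WT tumours. Tlr4-mutant and antibiotic tumours had 3 positive and 6 negative differences, with a median of -0.03. Differences were positive for 50.5% of all genes. At an unadjusted p under 0.05 there were 0 members, beside 932 of the 9053 genes. The intervals still allow a difference in Kynu between -1.32 and 1.27.

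In the order of group means, normal liver came first for all 9 genes. Antibiotic tumours came second for Tat, Hpd, Hgd, Afmid, Kmo and Kynu, and Tlr4-mutant tumours for Fah, Tdo2 and Haao. WT tumours came last for 8 genes and Tlr4-mutant tumours for Hgd. No neighbouring pair in these orders passed the limma test of the main fit, and the tumour groups overlapped for each member. Failing that test does not show that normal liver and the next tumour group were alike. For Hpd, Hgd, Afmid, Kmo and Kynu all antibiotic tumours, and for Haao all Tlr4-mutant tumours, lay below every normal liver. Tat, Fah and Tdo2 overlapped between normal liver and the next group. Kmo passed for antibiotic tumours in a fit of the 2 groups alone (limma adjusted p = 0.0403).

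The members with more than 1 probe set were then read probe set by probe set, with p-values adjusted over the 16663 probe sets kept. Tdo2 has 3 kept probe sets. Probe set 1449337_at read 11.67, 10.78 and 11.17 in antibiotic tumours, against 12.23, 12.27 and 12.25 in normal liver, and 1455770_at read 11.23, 10.22 and 10.75 against 11.63, 11.67 and 11.91. Both fell in antibiotic tumours, by 1.04 (SE 0.34, adjusted p = 0.0419) and 1.0 (SE 0.34, adjusted p = 0.0489), where the brightest, 1419093_at, differed by -0.42 (adjusted p = 0.288). In WT tumours 1449337_at fell by 0.88 (adjusted p = 0.0232) and 1455770_at differed by -0.67 (adjusted p = 0.0707), while Tlr4-mutant tumours differed from normal liver by -0.28 and -0.17. Tlr4-mutant minus antibiotic tumours was 0.76 and 0.83 for these probe sets (adjusted p = 0.384 and 0.342). The result that Tdo2 did not pass in antibiotic tumours is thus that of its brightest probe set. In WT tumours 1449337_at alone passed.

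**Figure D4:**
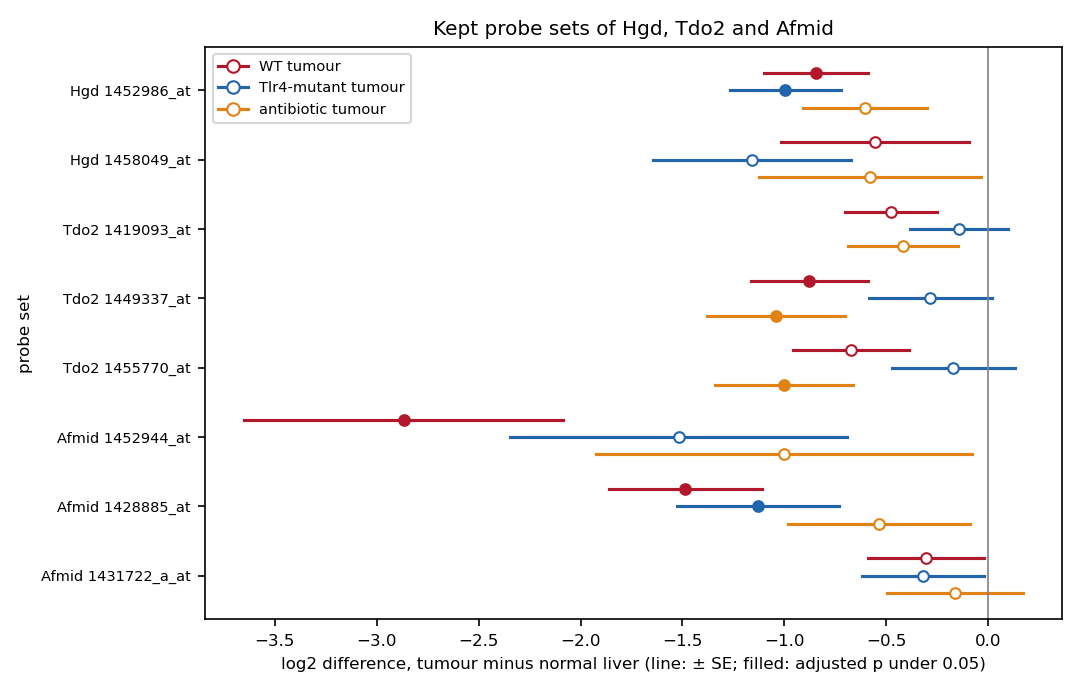
Log2 difference of each tumour group from normal liver (horizontal axis) for the kept probe sets of Hgd, Tdo2 and Afmid. Lines are ± SE of the limma fit over all kept probe sets, and filled points have an adjusted p under 0.05. The 2 dimmer probe sets of Tdo2 are filled for antibiotic tumours, and 1 of them for WT tumours.

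Afmid has 3 kept probe sets and 1 that exceeded log2 4 on no array. Probe set 1428885_at read 4.69, 4.07, 4.43, 4.07 and 4.74 in Tlr4-mutant tumours, against 5.70, 5.29 and 5.61 in normal liver, and fell there by 1.13 (SE 0.40, adjusted p = 0.0486). In WT tumours it fell by 1.49 (SE 0.38, adjusted p = 0.00599), but 4 of the 7 WT tumours were below log2 4, so the size is that of a signal partly at background. The difference in antibiotic tumours was -0.54 (adjusted p = 0.419). Probe set 1431722_a_at exceeded the limit on 3 arrays only and differed by -0.31 (adjusted p = 0.404) in WT tumours. The second Hgd probe set, 1458049_at, differed by -0.56 in WT tumours (adjusted p = 0.349) and by -1.16 in Tlr4-mutant tumours (adjusted p = 0.0918), and its highest array was WT tumour 19, at 6.79. The second Kynu probe set was below log2 4 on every array.

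Read array by array, every tumour had at least 7 of the 9 members below every normal liver, and WT tumours 17, 19, 20 and 22, Tlr4-mutant tumours 25 and 26 and antibiotic tumours 29 and 30 had all 9. The share of all genes for a single array is not given here, so these counts have no background beside them. The median member lay furthest below the normal mean in WT tumour 19 (-2.50), WT tumour 20 (-1.57) and WT tumour 17 (-1.48), and nearest to it in Tlr4-mutant tumour 27 (-0.25), Tlr4-mutant tumour 23 (-0.28) and antibiotic tumour 30 (-0.29). WT tumour 19 was among the 3 lowest tumours for 8 members, all but Hgd. WT tumours thus spanned the most: their SD was the largest of the 4 groups for 8 members, and reached 2.12 for Tat and 1.72 for Afmid, beside 0.59 and 0.73 in Tlr4-mutant tumours, 0.60 and 0.70 in antibiotic tumours and 0.23 and 0.09 in normal liver.

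**Figure D5:**
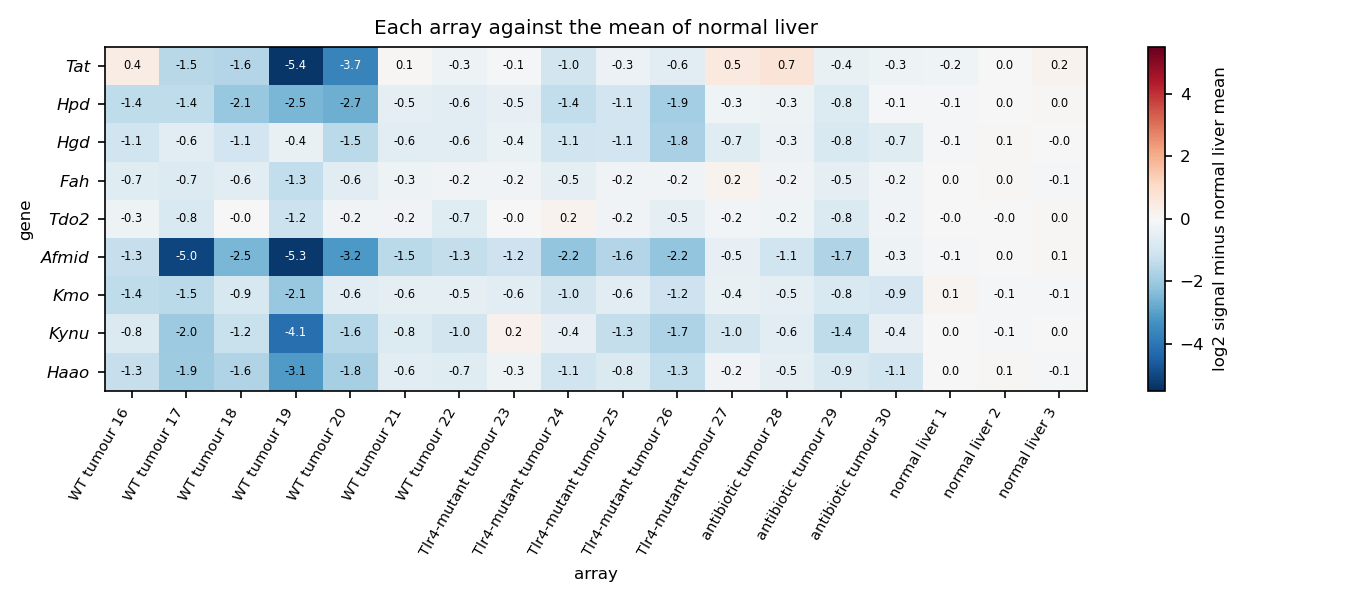
Log2 signal of each member (rows) on each array (columns) minus the mean of the 3 normal livers, as colour and as a printed value. Blue is below and red above normal liver. WT tumour 19 is the darkest column except in the Hgd and Hpd rows.

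Among the WT tumours, Hgd was not low in WT tumours 17 and 19, where most other members were. In WT tumours 17 and 19, Hgd read 11.91 and 12.12, the 2 highest values of the 7. The value of WT tumour 17 was close to those of WT tumours 21 and 22, at 11.90 and 11.88. Both lay below every normal liver. Fah, Tdo2, Afmid, Kmo, Kynu and Haao had their 2 lowest values of the WT tumours in WT tumours 17 and 19. Tat and Hpd were at their WT median in WT tumour 17. Over the 7 WT tumours the Pearson correlations of Hgd with the other 8 members ranged from -0.72 to 0.43, with a median of -0.28. The 28 pairs among those other members ranged from 0.07 to 0.96, with a median of 0.79. The points share the arrays and the normalization, and these are descriptions of 7 tumours. The low correlations of Hgd rest on those 2 arrays. Over the 13 tumours without them Hgd correlated with the other 8 members at 0.07 to 0.85 (median 0.66), and the other pairs at -0.15 to 0.92 (median 0.52). Over the 8 Tlr4-mutant and antibiotic tumours its range was 0.21 to 0.92 (median 0.70). Over all 15 tumours the 36 pairs had a median of 0.72, with 34 above 0, and without WT tumours 17 and 19 it was 0.55.

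WT tumours 17 and 19 also differed in genes that mark position in the liver lobule. Glul, the pericentral glutamine synthetase, read 12.73 and 13.14 there, against 8.54 to 11.08 in the other 5 WT tumours and 11.80 to 12.02 in normal liver. Oat, pericentral ornithine aminotransferase, read 13.30 and 13.75, against 7.03 to 11.52 in the other WT tumours and 12.23 to 12.72 in normal liver. The Wnt target Axin2 read 6.08 and 7.88 there and was below log2 4 on every other array. Cyp2f2, a periportal cytochrome P450, read 2.92 and 3.58, against 7.60 to 11.85 in the other WT tumours and 13.25 to 13.46 in normal liver. These 4 genes were picked after their values were seen, and their part in the member values was not tested.

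Genes whose signals followed each member most closely over the 15 tumours are given as a description. The highest Pearson r was with Igf1 for Tat (0.94) and Etnppl for Hpd (0.96). It was with Myorg for Hgd (0.94), Sardh for Fah (0.97) and Amdhd1, an enzyme of histidine breakdown, for Tdo2 (0.95). In the rest of the tryptophan branch it was with Cxcl12 for Afmid (0.96), Cryl1 for Kmo (0.90), Cth for Kynu (0.96) and Mthfd1 for Haao (0.95). Second came Dera (0.94), Galm (0.95), Enpep (0.93), Mthfd1 (0.96), Enho (0.93), Serpinf1 (0.96), Dcxr (0.89), Bhmt2 (0.95) and Ces2a (0.94), in the order of the members from Tat to Haao. For the mean of the 9 members the closest were Gnmt (0.97), Aass (0.96), Cth (0.96), S100a1 (0.96) and Aadat (0.95). Gnmt is glycine N-methyltransferase, Aass breaks down lysine and Aadat transaminates kynurenine. Without the 2 tumours furthest from the median, r was 0.75 for Tat and Igf1 and 0.96 for the mean and Aass.

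The other genes of the 2 pathways were read from lists. Of 10 listed genes of phenylalanine and tyrosine catabolism and its cofactor, 9 are on the array and 8 were tested. In WT tumours 5 fell and 0 rose, in Tlr4-mutant tumours 1 fell, and in antibiotic tumours 0 did, beside the 20.2%, 10.5% and 6.91% of all genes. Pcbd2, which recycles the tetrahydrobiopterin cofactor, fell by 0.63 (adjusted p = 0.00428) in WT tumours and by 0.50 (adjusted p = 0.0310) in Tlr4-mutant tumours. Gch1, which starts the synthesis of that cofactor, fell by 0.76 in WT tumours (adjusted p = 0.00930). Gstz1, the step between Hgd and Fah, was picked after its values were seen and differed by -0.29 in WT tumours (adjusted p = 0.144). The list's median was -0.54 in WT tumours, -0.24 in Tlr4-mutant tumours and -0.12 in antibiotic tumours.

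Of 14 other genes of tryptophan catabolism and NAD synthesis, 13 are on the array and 10 were tested. In WT tumours 6 fell, in Tlr4-mutant tumours 3 fell, and in antibiotic tumours 0 did, and none rose. Beside these counts, 20.2%, 10.5% and 6.91% of all genes fell. Aadat, which diverts kynurenine to kynurenic acid, fell by 2.85 in WT tumours (SE 0.58, adjusted p = 0.00166) and by 2.11 in Tlr4-mutant tumours (SE 0.61, adjusted p = 0.0227). Gcdh, a late step of lysine and tryptophan breakdown, fell by 1.11 in WT tumours (adjusted p = 0.0101). Ddc, the aromatic amino acid decarboxylase, fell by 3.54 in Tlr4-mutant tumours (SE 1.15, adjusted p = 0.0364), 1 of which was below log2 4. The medians were -1.0, -0.59 and -0.69 in WT, Tlr4-mutant and antibiotic tumours. None of the genes in either list differed between tumour groups at an adjusted p under 0.05.

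Enzymes of other amino acids and genes of lobular position were read in the same way. Of 22 tested enzymes that break down other amino acids, 11 fell in WT tumours, 3 in Tlr4-mutant tumours and 0 in antibiotic tumours, beside 20.2%, 10.5% and 6.91% of all genes. Bckdha, a subunit of the branched-chain ketoacid dehydrogenase, fell by 1.68 (adjusted p = 0.000570) and Pcca, of propionyl-CoA carboxylase, by 1.30 (adjusted p = 0.00130) in WT tumours. In Tlr4-mutant tumours Csad, cysteine sulfinate decarboxylase, fell by 3.0 (adjusted p = 0.00925) and Pcca by 0.83 (adjusted p = 0.0376). Periportal genes had 3 falls among 6 tested in WT tumours, Cyp2f2 (-5.18) and Ass1 (-1.99) with the smallest p-values, and pericentral genes 1 among 9, Cyp7a1 (-3.47), in the comparison where 20.2% of all genes fell. Cyp2f2 was below log2 4 in 2 of the 7 WT tumours and Ass1 in 1.

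Regulators of hepatocyte genes gave calls in both directions in WT and in Tlr4-mutant tumours. Among 12 glucocorticoid-responsive genes, 2 rose and 1 fell in WT tumours, 2 rose in Tlr4-mutant tumours and 1 rose in antibiotic tumours. Over all genes 18.8% rose in WT, 11.7% in Tlr4-mutant and 8.11% in antibiotic tumours, so these counts are near the background. Igfbp1, an insulin-like growth factor binding protein that insulin also represses, rose by 4.79, 4.53 and 4.22 in WT, Tlr4-mutant and antibiotic tumours. Zbtb16 rose by 1.19 in WT tumours and by 1.61 in Tlr4-mutant tumours, with 1 normal liver below log2 4, while Pck1, of gluconeogenesis, fell by 1.86 in WT tumours. Among 10 hepatocyte transcription factors, Nr1h4 (-1.31) and Cebpa (-1.19) were among 3 that fell and Foxa3 (0.84) and Prox1 (0.89) the 2 that rose in WT tumours. In Tlr4-mutant tumours Cebpb fell by 1.20 and Foxa3 rose by 0.89, and in antibiotic tumours Nr5a2 fell by 0.77. The shares of all genes that fell were 20.2%, 10.5% and 6.91% in WT, Tlr4-mutant and antibiotic tumours.

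The 6 tested genes of the aryl hydrocarbon receptor, which kynurenine can activate, had no member past the threshold in any comparison. The smallest unadjusted p was that of Tiparp in antibiotic tumours (1.30, adjusted p = 0.0720), and Tiparp differed by 1.02 in WT tumours (adjusted p = 0.0546). Of 5 tested transporters of aromatic amino acids, Slc43a1, which carries large neutral amino acids, passed in Tlr4-mutant tumours (adjusted p = 0.0401), where 11.7% of all genes rose. Its normal livers were all below log2 4 (mean 3.33) and so were 3 of the 5 tumours (mean 4.24), so the size of the rise is not given.

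Markers of other cells were read beside these values. Against normal liver 18.8% of all genes rose in WT, 11.7% in Tlr4-mutant and 8.11% in antibiotic tumours. Among 9 tested Kupffer cell and macrophage markers Cd68, Lyz2 and C1qb rose in WT tumours, and the summed signal of the list was 9.96 to 12.6 in WT, 10.0 to 12.3 in Tlr4-mutant and 9.25 to 12.3 in antibiotic tumours, against 9.68 to 10.9 in normal liver. Marco and Timd4 were below log2 4 on every array. Cd68 was below it in all 3 normal livers and 2 WT tumours, so the size of its rise is not given. Both tested neutrophil markers, S100a8 and S100a9, rose in WT and in Tlr4-mutant tumours. Both were below log2 4 in every normal liver and above it in every Tlr4-mutant tumour, where S100a8 rose at least 9.48-fold and S100a9 at least 5.71-fold. In WT tumours S100a8 was below log2 4 in 1 of 7 and S100a9 in 4 of 7, so the sizes of those rises are not given. The summed neutrophil signal was 4.96 to 8.31 in WT, 7.13 to 9.23 in Tlr4-mutant and 4.89 to 6.93 in antibiotic tumours, against 4.30 to 4.50 in normal liver, with Mpo and Elane below log2 4 throughout. Of 7 tested stellate cell and fibroblast markers, Reln alone rose in WT tumours, where the median difference of the list was -0.14. The summed stellate and fibroblast signal was 11.4 to 12.5 in WT, 11.5 to 11.7 in Tlr4-mutant and 11.4 to 12.3 in antibiotic tumours, against 10.3 to 11.5 in normal liver, with Des and Col1a1 below log2 4 throughout. None of 6 tested endothelial markers passed. Their summed signal was 5.77 to 10.8 in WT, 9.84 to 10.3 in Tlr4-mutant and 8.76 to 11.2 in antibiotic tumours, against 9.36 to 10.3 in normal liver. Of the hepatocyte markers Ahsg rose in all 3 tumour groups and Fgb in Tlr4-mutant tumours. All 7 markers of T, NK and B cells, and Krt19 and Krt7 of cholangiocytes, were below log2 4 on every array. Their part in the member values was not tested.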

How the data were processed

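Expression had been measured on 18 oligonucleotide arrays, from 100 ng of RNA each per the labels. The deposited values are log2 signals that the authors made with GCRMA, per the submitters' processing notes, and the GCRMA version is not given in the sources used here. The labels gave each array's group and number, and 0 value columns lacked a sample. Of 45101 probe sets 64 are controls, 34945 list 1 symbol, 932 several and 9160 none. Through Entrez identifiers 34754 were found in a RefSeq gene table, and 0 symbols changed.

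Probe sets above log2 4 on at least 3 arrays were kept (16663, of which 14689 with 1 symbol), and 9053 genes were tested, each through the kept probe set with the highest mean signal. With limma 3.58.1 (lmFit and eBayes) under R 4.3.3, 1 linear model of the 4 groups was fitted over the 18 arrays, with two-sided p-values adjusted by Benjamini-Hochberg over all 9053 genes in each of 6 comparisons. An adjusted p under 0.05 counted as a change. The number of arrays limits the precision, and the procedure was tested on simulated data. Alternatives were other filters, probe set rules, scalings, variance settings and sample sets, a threshold of 0.01, leaving out each array in turn, and 1 weight per group, the last chosen after seeing the data. Besides the members, the text names up to 2 rises and 2 falls of smallest p in each list, the gene of smallest p where none passed, and the genes most correlated with each member. Others are said to have been picked after their values were seen. The members and lists were chosen with earlier results of these data known. No 2 arrays were identical, and the highest correlation between 2 was 0.9938. Promoter windows were scanned and figures drawn with python 3.11.15 and matplotlib 3.10.9. One listed gene of phenylalanine catabolism is not reported here.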

Additional observations from a re-analysis of the deposited data

Results flagged for a closer look

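Kynu in WT tumour 19 read log2 6.48, where the nearest of the other 6 WT tumours read 8.62 and the highest 9.86. The gap is 0.634 of the whole range of the group, above Dixon's 95% critical value for 7 samples. It was the only such value among the 18 sets of a member and a group with 4 to 10 samples that were examined, and chance alone flags about 1 set in 20. WT tumour 19 was also the lowest WT tumour for Tat, Fah, Tdo2, Afmid, Kmo and Haao. Without it Kynu kept its call in WT tumours against normal liver.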

How the results depend on the processing

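No paired analysis was possible because the labels give each sample its own number and the groups share none. Leaving out 1 array at a time gave 4 to 7 members lower in WT tumours, 0 to 2 in Tlr4-mutant tumours and 0 in antibiotic tumours, each against normal liver, and 0 between tumour groups. At an adjusted p under 0.01 there were 3 in WT tumours and 0 in Tlr4-mutant tumours. In Tlr4-mutant tumours the count was 6 with array weights, 3 in a fit of the 2 groups alone, 3 without WT tumours 17 and 19, and 4 with 1 weight per group. In antibiotic tumours it was 2 in a fit of the 2 groups alone and 1 without WT tumours 17 and 19. These fits differ from the main one in the samples or weights that set the spread. Of 972 values of single members with 1 array left out, 12 lost a call and 1 gained one. Of 588 under other planned settings, 3 lost and 13 gained one, and of 54 with 1 weight per group 5 gained one. None of these changed the direction of a call. Lost calls were those of Kynu, Hgd and Fah in WT tumours and of Hgd in Tlr4-mutant tumours. Hpd, Afmid, Kmo and Haao passed in WT tumours in every setting run at the 0.05 threshold that had a value for them. Haao had none without probe sets ending in _a_at. With 1 weight per group (0.80 WT, 1.06 Tlr4-mutant, 0.60 antibiotic, 2.53 normal liver) all 9 members passed in WT tumours. The limit of these arrays is signal over background: Afmid in WT tumours 17 and 19 lay within 1 log2 unit of the detection limit.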

Other observations

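Afmid shares its start region with Tk1, thymidine kinase: the 2 gene models on chromosome 11 (Afmid 117825503 to 117839908, Tk1 117815519 to 117826087, GRCm38.p6) overlap by 585 bases, which include the promoter window shown for Afmid. Tk1 was picked for this reason after its values were seen. Tk1 read 2.12 to 4.10 in WT tumours, 3.18 to 4.68 in Tlr4-mutant tumours and 4.63, 3.83 and 5.68 in antibiotic tumours, against 5.42, 5.20 and 5.80 in normal liver. Tumour arrays below the detection limit of log2 4 numbered 5 of 7 for WT, 4 of 5 for Tlr4-mutant and 1 of 3 for antibiotic mice, so the sizes of its differences are not given. In WT tumours 17 and 19, where Afmid read 4.48 and 4.21, Tk1 read 2.48 and 2.12.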
